A study of Homo sapiens with 19 samples.

Results

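The genes described here are 34 collagens, laminins and other genes of the extracellular matrix, chosen by name from what their products do: 5 fibrillar collagens, 9 other collagens, 2 lysyl oxidases, 7 fibulins, fibrillin and latent TGF-β binding proteins (LTBPs), 3 matricellular proteins and 8 laminin chains and basement membrane proteoglycans. All 34 had a row in at least 1 of the 15 tables of splicing events, out of 12003 genes with a row in any of them. The level of a gene was read from the junction reads of its skipped exon (SE) events, the exons that a mature transcript can either keep or leave out. Of the 34 genes, 25 had an SE event that all 3 tabulated comparisons listed, and these 25 account for 143 of the 33107 events so shared.

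The cells were HMLE/Twist-ER, human mammary epithelial cells immortalized with telomerase, which carry the transcription factor Twist fused to an estrogen receptor. Without tamoxifen they are epithelial (EPI), and 20 nM tamoxifen switches Twist on and takes them through an epithelial-mesenchymal transition (EMT) to a mesenchymal state (MES). Control cells carried a non-specific shRNA and knockdown cells an shRNA against AKAP8, an RNA-binding protein that regulates splicing, all delivered by lentivirus. The 11 RNA-seq libraries were 3 EPI_Control, 3 EPI_shAKAP8, 3 MES_Control and 2 MES_shAKAP8, and 8 seCLIP samples, AKAP8 immunoprecipitates and their inputs, map where AKAP8 contacts RNA in each state (0 nM and 20 nM tamoxifen). All libraries come from this 1 line, and which AKAP8 shRNA was sequenced is not given in the labels. The authors call the libraries of a group biological replicates, without saying how far apart the cultures were kept. Every p-value therefore measures only the spread between these libraries.

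The extracellular matrix that surrounds cells has forms that differ with the cells that make it. Epithelial cells rest on a basement membrane, a thin sheet of laminins, collagen IV, agrin and perlecan, to which they are held by laminin-332, collagen XVII and collagen VII. Mesenchymal cells lay down interstitial matrix, in which fibrillar collagens form cables that lysyl oxidases cross-link, and fibrillins, fibulins and LTBPs form elastic microfibrils that also store TGF-β, and a change from one kind of matrix to the other is a known feature of EMT in cultured mammary cells.

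Each library held between 32705396 and 37640402 SE junction reads in the EMT table, between 31258177 and 38997923 in the EPI knockdown table and between 35073827 and 40852217 in the MES knockdown table. The events that all tables share held 21198882 to 28261544 reads per library. A level below is the sum of a gene's inclusion and skipping reads over its shared SE events, divided by the size factor of the library, and is called scaled reads. Because it grows with the number of events and not with length, levels are compared between libraries and never between genes. A junction read that supports several events is counted in each. Libraries of a group are named by the position at which their reads are listed, such as the first or the third. AKAP8 itself had 244, 310 and 245 scaled reads in EPI_Control and 121, 98.8 and 125 in EPI_shAKAP8 (log2 fold change -1.20, adjusted p = 0.06642 from limma), and 382, 196 and 248 in MES_Control against 108 and 122 in MES_shAKAP8 (-1.20, adjusted p = 0.03215 from limma). Every knockdown library lay below every control of its state. The labels of the states also match their markers. Of 14 epithelial markers 6 had a level and all 6 fell in EMT, their summed level being 9362 to 11956 in the EPI libraries and 508 to 1018 in the MES libraries, and of 12 mesenchymal markers 8 had a level and all 8 rose. No epithelial marker was at 0 in any library, and ZEB1 and ZEB2 were at 0 to 13.5 scaled reads in the EPI libraries. Of 6 endothelial and 6 blood cell markers, 0 had a level that could be tested, so the lists do not measure such cells.

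Of the 25 matrix genes tested, 17 changed between EPI_Control and MES_Control at an absolute log2 fold change over 1 and a Benjamini-Hochberg adjusted p under 0.05 from limma, 12 of them higher and 5 lower in MES. Among all 9016 genes tested, 12.5% changed, 5.39% higher and 7.15% lower. A level of 10 scaled reads in 2 libraries was required, so a gene that passes only through the state in which it is high had to differ, and the counts are therefore a description. The median log2 fold change was 0.75 over the 25 genes and 0.01 over all genes. These are bulk libraries, in which fewer cells of a kind and less RNA per cell cannot be told apart. The plot of levels by library shows that the 4 groups separate mainly by state.

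**Figure D1:**
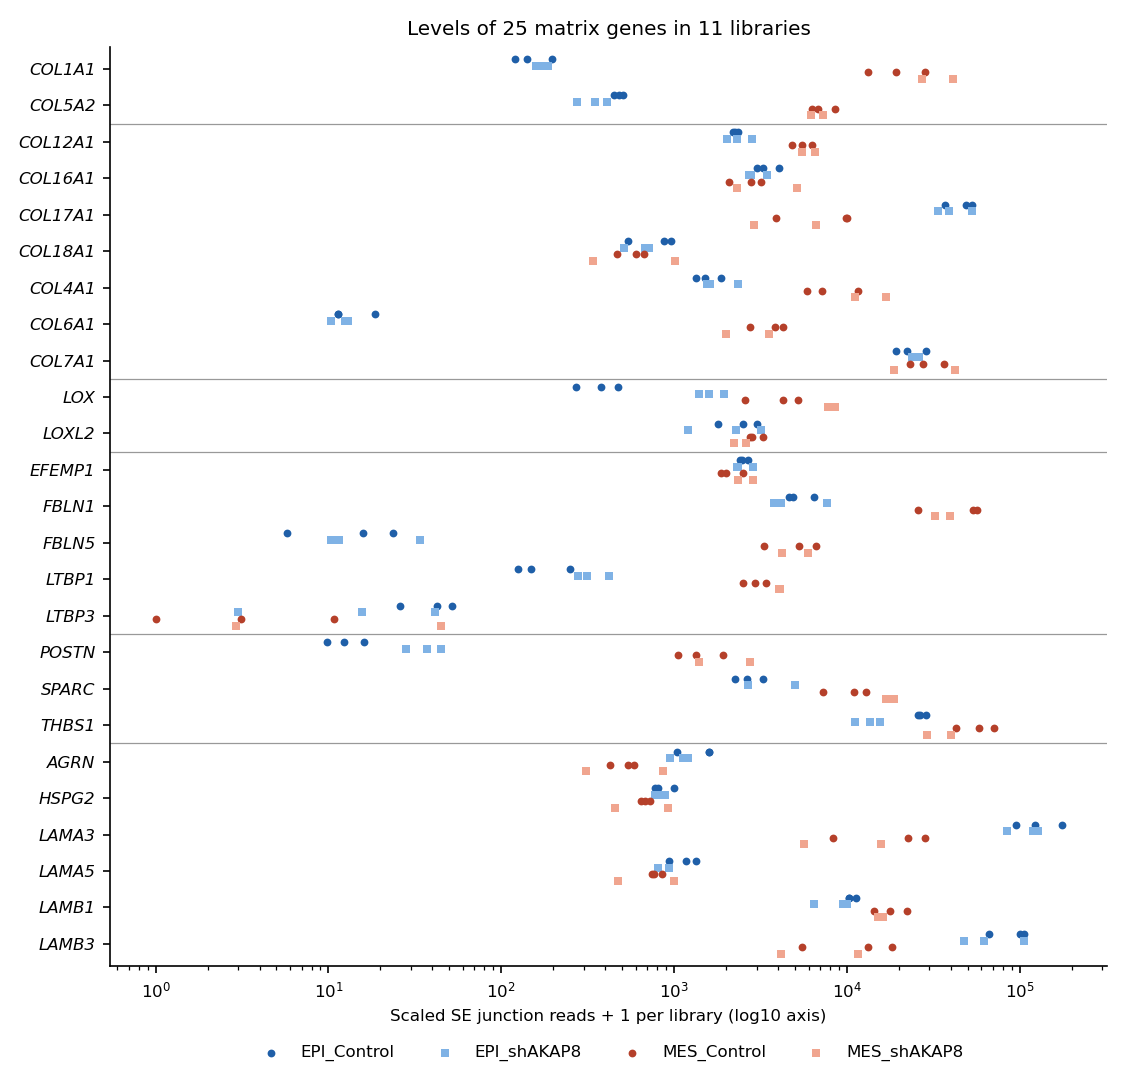
Scaled SE junction reads plus 1 (log10 axis) of the 25 matrix genes with shared events, 1 point per library, with EPI_Control (n = 3) and EPI_shAKAP8 (n = 3) in blue and MES_Control (n = 3) and MES_shAKAP8 (n = 2) in red and orange. Lines divide the roles, and COL1A1, COL6A1, FBLN5 and POSTN show the widest gaps between states, while COL7A1, COL16A1, EFEMP1 and LOXL2 overlap.

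Fibrillar collagens have triple helices that pack into the banded cables of connective tissue. Of the 5 described here 2 had a level, and both rose in EMT. COL1A1, the main chain of type I collagen (ENSG00000108821.13, chr17:48261462-48278993, minus strand, GRCh37), had 140.4, 196 and 119 scaled reads in EPI_Control and 19251, 28187 and 13316 in MES_Control. The MES mean of 20250 ± 7486 (SD, n = 3) was 133.5 times the EPI mean of 152 ± 39.7 (SD, n = 3), and the log2 fold change was 7.02 ± 0.26 (SE, adjusted p = 2.95e-09 from limma). The ranges of the states lie far apart. COL5A2, a chain of type V collagen, which starts fibrils and limits their width, had 448, 509 and 479 against 6828, 8561 and 6274, a log2 fold change of 3.90 ± 0.18 (adjusted p = 2.283e-08 from limma), again with no overlap. For 3 more fibrillar chains no SE event is in the EPI knockdown table, and they are described further down.

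The exons of these collagens carry their function in a form that can be read from the listed coordinates. Collagen chains repeat glycine in a fixed rhythm, the Gly-X-Y triplet, so the coding exons repeat a GGN codon every 9 bases. Of the 62 distinct SE exons of the 5 fibrillar collagens in any table, 62 had a length that divides by 3, 60 (96.8%) a length that divides by 9 and 36 (58.1%) were exactly 54 bases long. Among all 52851 SE exons of 11701 genes the shares were 42.1%, 14.2% and 0.674%. Leaving out any 1 of these 62 exons keeps the reading frame. All 36 exons of 54 bases began with GGN and repeated it at every step of 9 bases, 6 times in all. Exons of this kind are shown for 3 fibrillar collagens, read from GRCh37 on the strand of the gene with the GGN codons in capitals (COL1A1 exon 8, chr17:48275310-48275363, minus strand, COL3A1 exon 7, chr2:189853316-189853369, plus strand, and COL5A2 exon 10, chr2:189950445-189950498, minus strand).
COL1A1 exon 8: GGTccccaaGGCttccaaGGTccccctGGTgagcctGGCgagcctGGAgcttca
COL3A1 exon 7: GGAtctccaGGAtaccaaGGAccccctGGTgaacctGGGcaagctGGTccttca
COL5A2 exon 10: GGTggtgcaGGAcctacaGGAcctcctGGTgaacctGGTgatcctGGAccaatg
In the other collagens 88.1% of 176 exons divided by 3 and 54.5% by 9, and in laminins and basement membrane proteoglycans, which hold no collagen helix, the shares were 45.4% and 18.6% of 97 exons.

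Of the 9 other collagens 7 had a level, of which 3 rose and 1 fell. COL6A1, a chain of the beaded collagen VI of interstitial matrix, rose most among these 7, with 10.4, 17.7 and 10.3 scaled reads in EPI_Control and 3842, 4258 and 2755 in MES_Control (log2 fold change 8.05 ± 0.28, adjusted p = 2.95e-09 from limma). COL4A1, the collagen IV chain of basement membranes, had 1515, 1863 and 1332 against 7148, 11567 and 5857 (2.34 ± 0.26, adjusted p = 2.801e-05 from limma). Both states were apart for either gene. COL12A1, which coats the surface of collagen fibrils, rose from a mean of 2257 ± 74.5 to 5518 ± 724 (SD, n = 3 each), by 1.28 ± 0.16 on the log2 scale (adjusted p = 6.858e-05 from limma). COL17A1, the transmembrane collagen of the hemidesmosome that holds basal keratinocytes and mammary basal cells to laminin, went the other way, with 36684, 53019 and 49061 in EPI_Control and 3893, 9834 and 10060 in MES_Control. Its log2 fold change was -2.65 ± 0.36 (adjusted p = 1.713e-04 from limma), and its mean fell to 0.1714 of the EPI mean. COL7A1, the anchoring fibril that ties the epidermal basement membrane to the stroma, did not move with COL17A1: its log2 fold change was 0.31 (19314 to 28573 in EPI_Control, 23289 to 36264 in MES_Control). COL16A1 at -0.38 and COL18A1, the precursor of endostatin, at -0.43 also did not pass the test, and for all 3 the states overlap.

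Of the lysyl oxidases, LOX, the copper enzyme that oxidizes lysines so that collagen and elastin chains cross-link (ENSG00000113083.12, chr5:121398890-121414108, minus strand, GRCh37), had 268, 376 and 470.4 scaled reads in EPI_Control and 4281, 5187 and 2558 in MES_Control. That is a ratio of means of 10.79 and a log2 fold change of 3.40 ± 0.26 (adjusted p = 1.325e-06 from limma), with every MES library above every EPI library. LOXL2, a relative that cross-links collagen IV, had 1799 to 3005 against 2760.1 to 3259 and did not pass (0.30 ± 0.29).

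Fibulins and LTBPs include the gene with the largest change of the 25. FBLN5, which guides elastin onto microfibrils, had 4.74, 14.8 and 22.7 scaled reads in EPI_Control and 3306, 6582 and 5314 in MES_Control, a log2 fold change of 8.56 ± 0.51 (adjusted p = 2.007e-07 from limma). The EPI values come from 1 event with few reads. LTBP1, which ties latent TGF-β to the matrix, had 123, 249 and 148 against 2504, 3407 and 2919.5 (4.13 ± 0.24, adjusted p = 1.874e-07 from limma). FBLN1, a fibulin of basement membranes and elastic fibers, had 4848, 6421 and 4596 against 56306, 53670 and 25715 (3.03 ± 0.31, adjusted p = 1.455e-05 from limma). In all 3 genes the states were apart. EFEMP1, also called fibulin-3, stayed within overlapping ranges, 2392 to 2678 in EPI_Control and 1873 to 2493 in MES_Control (-0.25 ± 0.16). LTBP3 was the one member of this group called lower, with 41.7, 51.2 and 24.8 against 9.80, 0 and 2.11 (-3.58 ± 1.12, adjusted p = 0.03356 from limma). It rests on 1 event with at most 51.2 scaled reads in any library, and leaving out any of 5 of the 6 libraries took the adjusted p from limma to between 0.053 and 0.144. Among these it was called only without the first MES_Control library (0.02406), and over all SE events of the EMT table it was at -1.54 (0.00227).

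All 3 matricellular genes, whose products sit in the matrix and act on cells more than they bear load, rose. POSTN, or periostin, which binds collagen and integrins, had 15.2, 8.86 and 11.4 scaled reads in EPI_Control and 1057, 1914 and 1339.6 in MES_Control (log2 fold change 6.80 ± 0.32, adjusted p = 2.651e-08 from limma). SPARC, a collagen-binding protein, went from a mean of 2720 ± 513 to 10380 ± 2886 (SD, n = 3 each), by 1.91 ± 0.26 (adjusted p = 1.713e-04 from limma). THBS1, or thrombospondin-1, which activates latent TGF-β, had 25694, 28584 and 26351 against 58429, 70978 and 43025 (1.07 ± 0.20, adjusted p = 0.001688 from limma). Its change sits just over the fold cutoff and fell just under it with scaling by the library total (0.95), with its 1 SE event with the most reads (0.96) and without the second MES_Control library (0.90).

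Of the 8 laminin and basement membrane proteoglycan genes 6 had a level, of which 3 fell and 0 rose past the fold cutoff. LAMA3 and LAMB3 belong to laminin-332, the laminin that epithelial cells use to anchor themselves. LAMA3 had 94640, 122400 and 174750 scaled reads in EPI_Control and 8326, 22545 and 28340 in MES_Control (log2 fold change -2.86 ± 0.44, adjusted p = 4.322e-04 from limma). LAMB3 had 65936, 105210 and 99984 against 5460.4, 13321 and 18171 (-3.01 ± 0.45, adjusted p = 3.577e-04 from limma). The MES means were 0.1511 and 0.1363 of the EPI means, with no overlap of the states. LAMB1, a chain of the laminins that many cell types make, was higher in every MES library, 14376 to 22307 against 10265 to 11355, with an adjusted p of 0.01237 from limma but a log2 fold change of 0.75 under the cutoff. AGRN, or agrin, a heparan sulfate proteoglycan, fell from a mean of 1411 ± 324 to 517 ± 81.4 (SD, n = 3 each), by 1.43 on the log2 scale (adjusted p = 0.004446 from limma). LAMA5 (-0.53) and HSPG2, or perlecan (-0.33), did not pass. In each of the 4 groups the first listed library was the lowest for LAMA3, LAMB3 and COL17A1, also in EPI_shAKAP8, with 84844, 47587 and 33491 scaled reads. It had the lowest summed level of the 6 epithelial markers in 3 groups (9362 in EPI_Control, 616 in MES_Control and 508 in MES_shAKAP8) but not in EPI_shAKAP8, where it had 10775 of 9647 to 11956. The part of these libraries in the values was not tested.

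The remaining 9 genes have no level in the comparison of all libraries, and 8 have one in at least 1 table read alone. This reading was added after the data were seen. In it 16% of 10326 genes changed in EMT and 3.77% of 9876 changed in the MES knockdown. LAMA4 is present through 1 alternative 5′ splice site in the MES knockdown table, and has no level. In the EMT table COL3A1, the chain of type III collagen, had 14.2, 11.7 and 12.3 scaled reads in EPI_Control and 47802, 44996 and 22913 in MES_Control (log2 fold change 11.39, adjusted p = 2.394e-09 from limma). COL6A2, the partner of COL6A1, had 10.4, 34.03 and 54.3 against 32950, 37146 and 34012 (10.27, adjusted p = 1.016e-07 from limma), and COL1A2, the partner of COL1A1, had 11.4, 19.4 and 20.5 against 4190, 7237 and 4632 (8.21, adjusted p = 2.497e-08 from limma). FBN1, the fibrillin of microfibrils, had 78.7, 96.3 and 134 against 14755, 23199 and 11231 (7.27, adjusted p = 3.651e-08 from limma). In these 4 genes every EPI library was far below every MES library, and an exon is listed for a comparison only where reads both keep and skip it. FBLN2 rested on 0.972 to 2.84 scaled reads in EPI_Control against 93.8, 136 and 40.8, too few for a fold. It passed the filter only through MES libraries, so its call in EMT is a description. LAMC1, the gamma chain shared by most laminins, was higher in every MES library with a log2 fold change of 0.77, under the cutoff (adjusted p = 0.004082 from limma). In this reading 22 of the 31 matrix genes with a level were called, FBLN2 among them.

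The same change of state can be read in the knockdown cells, whose fold changes come from libraries that the control fold changes do not use. All 11 libraries share 1 fit and its estimate of the spread, so the calls in control and in knockdown cells are not independent. Between EPI_shAKAP8 and MES_shAKAP8, 16 of the 25 genes were called, 12 higher and 4 lower, where 12.3% of all genes were called, 5.45% higher and 6.82% lower. The 12 genes called higher were the 12 called higher in control cells. Their log2 fold changes in knockdown against control cells were 7.59 and 7.02 for COL1A1, 7.80 and 8.05 for COL6A1, 8.29 and 8.56 for FBLN5, 5.76 and 6.80 for POSTN, and 2.32 and 3.40 for LOX. Downward, LAMA3 at -3.53, LAMB3 at -3.28, COL17A1 at -3.23 and AGRN at -1.07 were called. AGRN had an adjusted p of 0.04244 from limma and lost the call without the first MES_shAKAP8 library (-0.33, adjusted p = 0.5353), without the first (0.09581) or the third (0.05783) EPI_shAKAP8 library, with upper-quartile scaling (0.05097) and with its own 2 groups alone (0.1111). LTBP3 was at -0.12, with 1.92 and 43.96 scaled reads in its 2 MES_shAKAP8 libraries. The plot of fold changes sets the comparisons side by side.

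**Figure D2:**
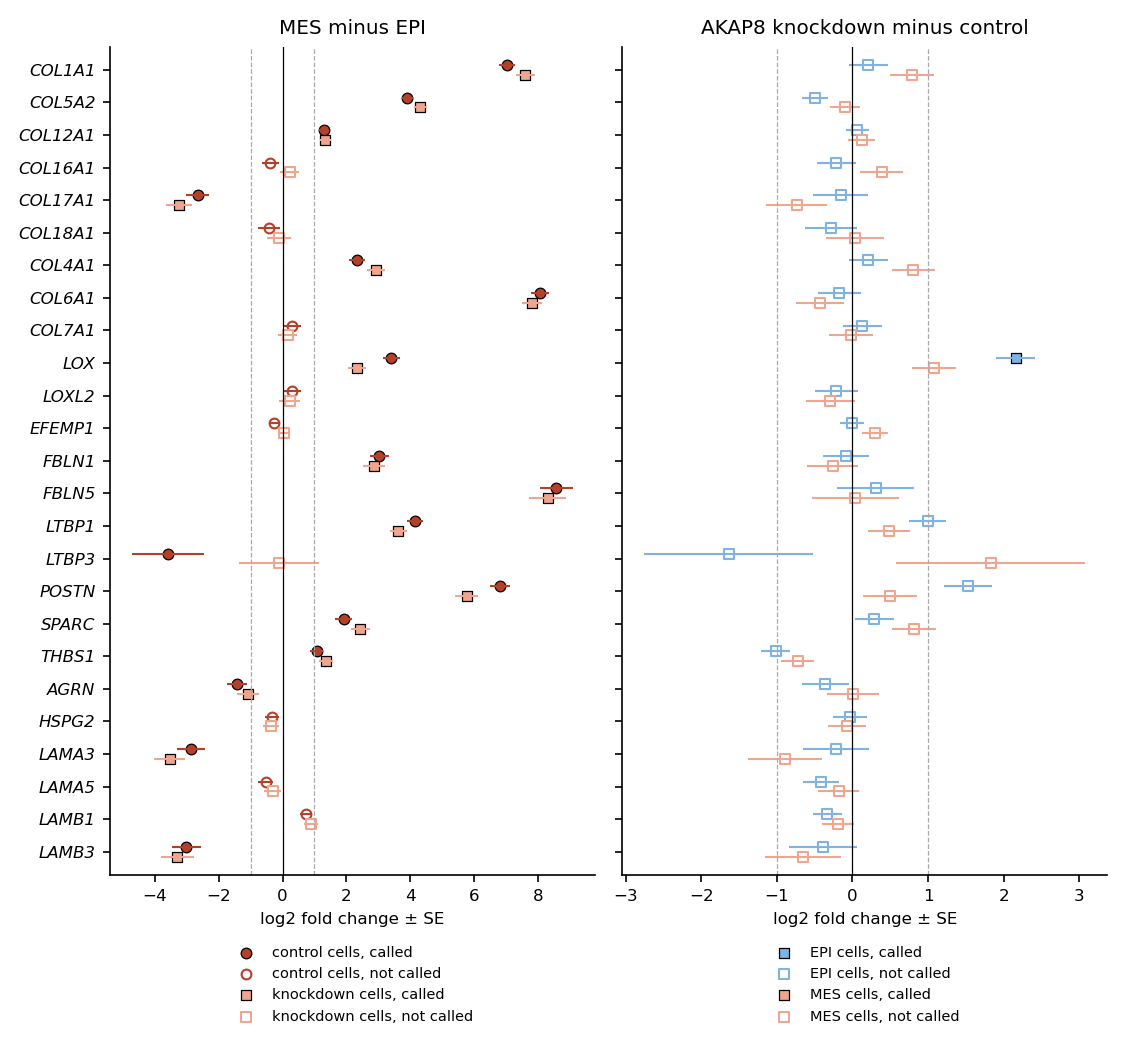
Log2 fold change ± SE of the 25 matrix genes between MES and EPI (left, control and knockdown cells) and between AKAP8 knockdown and control (right, EPI and MES cells), with filled symbols for genes called at an absolute log2 fold change over 1 (dashed lines) and an adjusted p under 0.05 from limma. On the left COL6A1 and FBLN5 lie near 8 in both kinds of cells, and on the right LOX in EPI cells, at 2.16, is the filled symbol.

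In epithelial cells, 1 of the 25 genes changed on AKAP8 knockdown, where 0.189% of all genes changed and 0.0776% were higher. That gene was LOX. It had 268, 376 and 470.4 scaled reads in the 3 EPI_Control libraries and 1583, 1950.4 and 1387 in the 3 EPI_shAKAP8 libraries. The lowest knockdown library was well above the highest control, the means stood at a ratio of 4.413, and the log2 fold change was 2.16 ± 0.26 (adjusted p = 0.003698 from limma). Without any single library it lay between 1.95 and 2.35 and remained called. In the EPI knockdown table read alone LOX was at 2.17 and was called just under the cutoff (adjusted p = 0.04944 from limma). Since both comparisons use the same EPI_Control libraries, the change in EPI knockdown and that in EMT are not independent, and the levels are best read side by side: mean LOX was 372 ± 101 in EPI_Control, 1640 ± 286 in EPI_shAKAP8, 4009 ± 1335 in MES_Control (SD, n = 3 each) and 8119 ± 559.5 in MES_shAKAP8 (SD, n = 2), so untreated knockdown cells lay between the untreated and the induced control cells.

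Next by p came THBS1, POSTN and LTBP1, which did not pass. THBS1 had 25694, 28584 and 26351 scaled reads in EPI_Control and 13551, 11143 and 15459 in EPI_shAKAP8, a log2 fold change of -1.02 ± 0.20 (adjusted p = 0.05833 from limma). POSTN had 15.2, 8.86 and 11.4 against 44.1, 26.9 and 36.4 (1.53 ± 0.32, adjusted p = 0.06712 from limma), and LTBP1 had 123, 249 and 148 against 276, 421 and 312 (0.99 ± 0.24, adjusted p = 0.1234 from limma). In each of these the knockdown libraries lay on one side of the controls. How many of all genes separate in this way was not counted. THBS1 passed with upper-quartile scaling (-1.05, adjusted p = 0.04744) and, like LTBP1 (1.28), with the SE event with the most reads (-1.09, both adjusted p = 0.04956). POSTN passed without the second EPI_shAKAP8 library (1.71, adjusted p = 0.02981) and LTBP1 without the second EPI_Control library (1.29, adjusted p = 0.04541). An unadjusted p under 0.05 was found for 5 genes, the fifth being COL5A2 at -0.50. The fibrillar collagen COL1A1 was at 0.21 ± 0.26, with 157 to 185 scaled reads in EPI_shAKAP8 inside the control range of 119 to 196. The laminin and proteoglycan genes had 6 of 6 log2 fold changes below 0, from -0.41 to -0.03. Of these 0 were called, and 0 had an unadjusted p under 0.05 from limma. The median over all genes was -0.01, and the share of all genes below 0 was not counted, so the signs are a description.

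**Figure D3:**
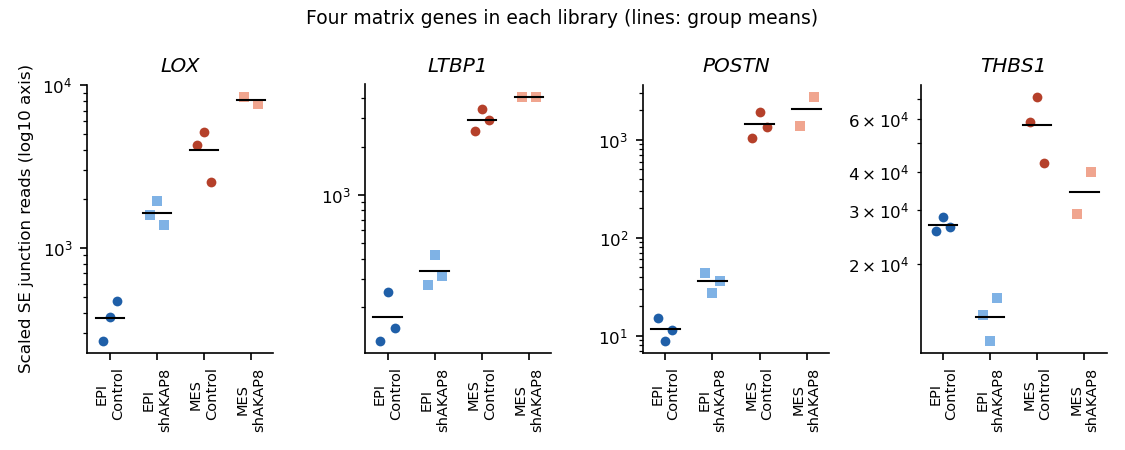
Scaled SE junction reads of LOX, LTBP1, POSTN and THBS1 in each library (log10 axes, each with its own range), 1 point per library with group means as lines, for EPI_Control (n = 3), EPI_shAKAP8 (n = 3), MES_Control (n = 3) and MES_shAKAP8 (n = 2). LOX and LTBP1 are higher and THBS1 is lower in every knockdown library than in every control of the same state, and POSTN separates in EPI but not in MES. Only LOX in EPI cells was called, and LTBP1 in MES cells had a log2 fold change of 0.48 (adjusted p = 0.3286 from limma). The share of all genes whose groups lie apart was not counted.

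In mesenchymal cells, 0 of the 25 genes passed on knockdown by limma and 5 were under 0.05 before adjustment, where 2.27% of all genes were called, 1.1% higher and 1.18% lower. The 3 with the smallest p were LOX, THBS1 and COL4A1. LOX had 4281, 5187 and 2558 scaled reads in MES_Control and 8515 and 7724 in MES_shAKAP8 (log2 fold change 1.08 ± 0.29, adjusted p = 0.05342 from limma). THBS1 had 58429, 70978 and 43025 against 29153 and 39945 (-0.72 ± 0.22, adjusted p = 0.08171 from limma), and COL4A1 had 7148, 11567 and 5857 against 11191 and 16887 (0.81 ± 0.29, adjusted p = 0.1222 from limma). For LOX and THBS1 the groups do not overlap, and for COL4A1 they do. LOX passed with upper-quartile scaling (adjusted p = 0.04806) and with the MES libraries alone (adjusted p = 0.02403), and with any library left out its adjusted p lay between 0.05475 and 0.2458. SPARC (0.81, adjusted p = 0.124) and COL1A1 (0.79, adjusted p = 0.1386) followed. In the MES knockdown table read alone, with 2 libraries a group, 1 of 33 genes was called, where 3.77% of all genes were, so the count is no more than the background. The gene was FBLN2, which had 123 and 192 scaled reads in MES_Control and 58.5 and 44.6 in MES_shAKAP8 (-1.57 ± 0.34, adjusted p = 0.02732 from limma). In the same reading LOX (0.77, adjusted p = 0.02208), THBS1 (-0.93, adjusted p = 0.03107) and SPARC (0.59, adjusted p = 0.04258) missed only the fold cutoff by limma. COL3A1, with 55819 and 51926 against 37950 and 20888, was at -0.94 (adjusted p = 0.05256), and COL1A2, with 19230 and 34037 against 42801 and 43981, at 0.76 (adjusted p = 0.08178), so the type I and type III chains had opposite signs and neither passed. COL5A1 (0.82), COL4A2 (0.59), LAMC1 (-0.37), FBN1 (-0.14) and COL6A2 (-0.02) did not pass either. In the EPI knockdown table LAMC1 had 2671 to 3266 scaled reads in EPI_Control and 2412 to 3760.1 in EPI_shAKAP8.

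Whether the knockdown acted differently in the 2 states was tested as an interaction. It called 0 of the 25 genes, and 0.0111% of all genes. By limma 2 genes had an unadjusted value under 0.05, LOX with a difference of -1.09 ± 0.39 between the MES and the EPI log2 fold change (adjusted p = 0.6525) and POSTN with one of -1.03 (adjusted p = 0.753). No knockdown effect on a matrix gene was therefore shown to differ between states.

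Genes that work with these in the matrix were followed in lists that include the members. Of the enzymes and chaperones that modify, fold and process collagen, 22 of 32 could be tested. In EMT 7 rose and 0 fell, where 5.39% of all genes rose and 7.15% fell. The median log2 fold change was 0.71 over the list and 0.01 over all genes. Besides LOX the 7 included PCOLCE (6.41, adjusted p = 1.205e-07 from limma), which speeds the removal of the C-propeptide, P4HA3 (2.70), a prolyl hydroxylase, and PLOD2 (1.82), a lysyl hydroxylase. In the MES knockdown, where 2.27% of all genes were called, this list had 2 calls with opposite signs. P3H1, a prolyl 3-hydroxylase, had 1606 to 2189 scaled reads in MES_Control and 4774 and 3733 in MES_shAKAP8 (1.21, adjusted p = 0.0232 from limma), and PLOD2 had 18294 to 26109 against 9592 and 9737 (-1.19, adjusted p = 0.04734 from limma). In the EPI knockdown, where 0.189% of all genes were called, LOX was the 1 call of the list.

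For the list counts that follow, 5.39% of all genes rose and 7.15% fell in EMT. Among 4 of 10 fibrillar collagens with a level, 3 rose in EMT, the third being COL5A3 (2.23, adjusted p = 0.002027 from limma), and of 12 of 24 network, beaded and other collagens 5 rose and 1 fell, with COL8A1 (4.99) and COL6A3 (4.21) beside the members. Of 10 of 15 laminin and basement membrane genes 2 rose and 4 fell. The basement membrane linker NID2, 1 of the 2 that rose, had 1.90 to 5.17 scaled reads in EPI_Control and 71.7 to 169.6 in MES_Control. It passed the filter of 10 scaled reads only through MES libraries, so its call is a description. LAMA1 rose as well (1.13). Of 22 of 37 glycoproteins and elastic fiber genes 13 rose and 3 fell, among them FN1, or fibronectin (1.86), MFAP2 (3.32) and FBN2 (2.55) upward and MFAP5 (-2.23) and LTBP4 (-1.10) downward (FN1, MFAP2 and FBN2 chosen after their values were seen). VCAN, a large proteoglycan of this list, had 0 to 1.03 scaled reads in EPI_Control and 148 to 232 in MES_Control. Like NID2 it passed the filter only through MES libraries. Of this list ECM1 fell on MES knockdown (-1.38, adjusted p = 0.02289 from limma), where 1.18% of all genes fell. Of 21 of 38 proteases and inhibitors 9 rose and 1 fell in EMT, with MMP2 (4.79), MMP24 (3.37) and ADAM12 (2.86) up and PLAU (-1.56) down, and 0 were called in either knockdown by limma (5 in EPI and 9 in MES under 0.05 unadjusted).

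Of 23 receptors for the matrix 17 had a level, of which 2 rose, 7 fell and 8 did not pass in EMT, where 5.39% of all genes rose and 7.15% fell. The median log2 fold change was -0.22. The laminin receptors BCAM (-2.70, adjusted p = 9.991e-06 from limma) and ITGB4 (-2.60, adjusted p = 5.021e-05 from limma), the latter a chain of the hemidesmosome integrin, fell with COL17A1, LAMA3 and LAMB3. Of the collagen-binding receptor kinases, DDR1, chosen after its values were seen, fell from 2130.3 to 2985 scaled reads in EPI_Control to 485 to 715 in MES_Control (-2.04, adjusted p = 1.782e-05 from limma), while DDR2 rose from 4.74 to 14.5 up to 548 to 641 (5.85, adjusted p = 1.779e-07 from limma). In both the states were apart. By limma 0 of the 17 were called in either knockdown, and 2 in EPI and 4 in MES were under 0.05 unadjusted. Of 5 basal mammary markers 2 had a level, of which TP63 fell (-2.67, adjusted p = 2.333e-05 from limma) beside LAMA3, LAMB3 and COL17A1.

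Few splicing events of the matrix genes passed. Percent spliced in (PSI) is the share of transcripts that keep a segment, and an event was called at a change of at least 10 percentage points with an adjusted p under 0.05 in a quasi-binomial test moderated by limma, after requiring 20 junction reads per library on average. Of 434 events of all 5 types tested in matrix genes in EMT, 1 was called, where 1.52% of all events were called. Of 325 in the EPI knockdown 0 were called (0.0446% of all events), and of 453 in the MES knockdown 0 (0.0506%). Among SE events alone the counts were 0 of 343, 0 of 257 and 0 of 354, where 1.35%, 0.0525% and 0.0479% of all SE events were called, and 13, 4 and 9 of the matrix SE events fell under 0.05 before adjustment. Most of these exons were kept nearly always: 94.2%, 95.7% and 94.1% of the matrix SE events had a mean PSI over 95 in both groups, against 75.5%, 76.2% and 72.6% of all SE events. In the fibrillar collagens this held for 37 of 37 events in EMT and 61 of 61 in the MES knockdown. An exon is listed only if some read skips it, so deep reading of a gene can list exons that are nearly always kept. In EMT the median event had 1153 reads per library over the matrix genes and 2392 over the fibrillar collagens. The part of depth in these shares was not tested.

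The event called in EMT was a pair of mutually exclusive exons of AGRN (chr1:981344-981468 and chr1:981540-981645, plus strand), where 2.15% of all such events were called. Its PSI was 46.1, 47.8 and 44.5 in EPI_Control and 38.5, 25.5 and 38.2 in MES_Control, a change of -12.0 points (adjusted p = 0.00217 from the quasi-binomial test). Read as single SE events, each of these exons was kept at a mean PSI of 97.4 or more in both states, so the 2 exons are nearly always both present and the value compares reads over one with reads over the other. It fell to -7.76 points (adjusted p = 0.2344) without the second MES_Control library, which had the lowest PSI, and was not called with limma on the logit of PSI (adjusted p = 0.3208).

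Of the SE events under an unadjusted 0.05, those with the largest change in EMT were an untranslated exon of LOXL2 (chr8:23228156-23228275), at 8.47, 5.87 and 7.16 in EPI_Control and 3.88, 2.88 and 2.35 in MES_Control (-4.13 points, adjusted p = 0.09001), AGRN exon 4 (chr1:976045-976260, -3.46 points, adjusted p = 0.4856) and LAMA5 exon 76 (chr20:60885475-60885628, -2.79 points, adjusted p = 0.5692). In LOXL2 the states were apart, and in AGRN and LAMA5 they overlap.

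In the EPI knockdown THBS1 exon 10 (chr15:39880727-39880900, coding) had 99.97, 100 and 99.91 in EPI_Control and 97.94, 99.93 and 99.72 in EPI_shAKAP8, a change of -0.76 points that had an adjusted p of 0.000344 but is far below 10 points and is largest in 1 library. COL17A1 exon 11 (chr10:105823505-105823576, -0.62 points) and LAMA3 exon 53 (chr18:21487514-21487630, 0.56 points) followed there with an adjusted p of 0.7609 each. In the MES knockdown they were LTBP1 exon 25 (-6.52 points), EFEMP1 exon 8 (6.26 points) and AGRN exon 4, which went from 90.06 and 98.26 to 100 and 100 (5.84 points), all with an adjusted p of 0.8121.

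Exons that matrix transcripts left out in part are shown as examples from POSTN, EFEMP1, LTBP1 and COL12A1, picked by hand and not as a ranking. The LOXL2 exon above was mostly skipped. LTBP3, LAMA3 and POSTN exon 19 also had a mean PSI between 10 and 90 in a comparison. For each exon shown, the event with the most skipping reads in the MES knockdown was used. POSTN varies in its C-terminal region, and its exons 17 (chr13:38148709-38148789), 18 (chr13:38145506-38145595) and 21 (chr13:38143437-38143520) were each kept at a level of their own. They are shown on the minus strand of GRCh37, the strand of the gene, with the exon in capitals and 15 bases of intron on either side in lower case, because their lengths of 81, 90 and 84 bases divide by 3 and each can be left out without a shift of frame.
POSTN exon 17: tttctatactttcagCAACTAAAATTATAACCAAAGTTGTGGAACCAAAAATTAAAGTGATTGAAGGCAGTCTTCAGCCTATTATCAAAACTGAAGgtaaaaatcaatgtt
POSTN exon 18: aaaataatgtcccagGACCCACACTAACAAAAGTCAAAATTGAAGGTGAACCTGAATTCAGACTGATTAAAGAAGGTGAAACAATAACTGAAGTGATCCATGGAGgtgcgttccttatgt
POSTN exon 21: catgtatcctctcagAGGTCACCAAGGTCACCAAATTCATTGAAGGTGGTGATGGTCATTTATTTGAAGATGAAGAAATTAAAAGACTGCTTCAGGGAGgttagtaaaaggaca
Exon 17 was mostly skipped, at 3.63, 3.75 and 2.66 PSI in MES_Control and 9.17 and 6.73 in MES_shAKAP8. Exon 18 was mostly kept, at 71.4, 71.3 and 58.4 and at 74.2 and 70.4, and exon 21 was kept at 30.9, 26.9 and 27.2 and at 29.8 and 37.1. The order of the 3 exons was the same in all 5 MES libraries. Exon 17 was higher in both knockdown libraries (adjusted p = 0.8121), and for the others the groups overlap. The EPI libraries had at most 16 junction reads on any of them, too few to compare the states.

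EFEMP1 exons 7 (chr2:56104881-56105000) and 8 (chr2:56103758-56103877) are shown next, on the minus strand in the same manner, since a skipping read joins exon 6 to exon 9 and leaves out both at once, and LTBP1 exon 25 (chr2:33567905-33568030, plus strand) with them, as all 3 code for repeats of the epidermal growth factor type that fibulins and LTBPs are built from.
EFEMP1 exon 7: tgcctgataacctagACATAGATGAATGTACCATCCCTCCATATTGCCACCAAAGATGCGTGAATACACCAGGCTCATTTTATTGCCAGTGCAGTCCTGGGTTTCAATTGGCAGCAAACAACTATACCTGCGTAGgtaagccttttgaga
EFEMP1 exon 8: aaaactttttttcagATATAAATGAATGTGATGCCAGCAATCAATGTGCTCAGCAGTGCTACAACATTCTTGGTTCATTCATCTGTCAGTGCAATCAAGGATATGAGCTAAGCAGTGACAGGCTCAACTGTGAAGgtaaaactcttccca
LTBP1 exon 25: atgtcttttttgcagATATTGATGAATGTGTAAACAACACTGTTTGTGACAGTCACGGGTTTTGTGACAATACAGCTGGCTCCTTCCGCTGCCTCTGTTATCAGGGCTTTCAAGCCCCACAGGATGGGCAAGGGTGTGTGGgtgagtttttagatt
Read against that joint skip, EFEMP1 exon 8 was at 87.3, 82.3 and 79.7 PSI in EPI_Control, 86.5, 86.2 and 88.5 in EPI_shAKAP8, 85.3, 88.4 and 88.3 in MES_Control and 94.97 and 91.3 in MES_shAKAP8, the highest of all groups. In this event a transcript with exons 7 and 8 is counted where exon 8 meets exon 9, not where it meets exon 7. PSI still divides inclusion reads over both junctions of exon 8, so these values understate how often it was kept. LTBP1 exon 25 was at 100, 100 and 88.6 in EPI_Control on 33 to 53 reads a library, 97.7, 88.4 and 89.5 in EPI_shAKAP8, 88.6, 93.3 and 91.7 in MES_Control and 80.4 and 88.5 in MES_shAKAP8. COL12A1 exon 13 (chr6:75884754-75885026, 273 bases, also a multiple of 3) ranged from 81.8 to 89.2 in EPI_Control, 82.2 to 87.3 in EPI_shAKAP8 and 82.5 to 86.9 in MES_Control, and was at 76.7 and 81.8 in MES_shAKAP8. In the MES knockdown the 3 changed by 6.26, -6.52 and -5.00 points and none passed.

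**Figure D4:**
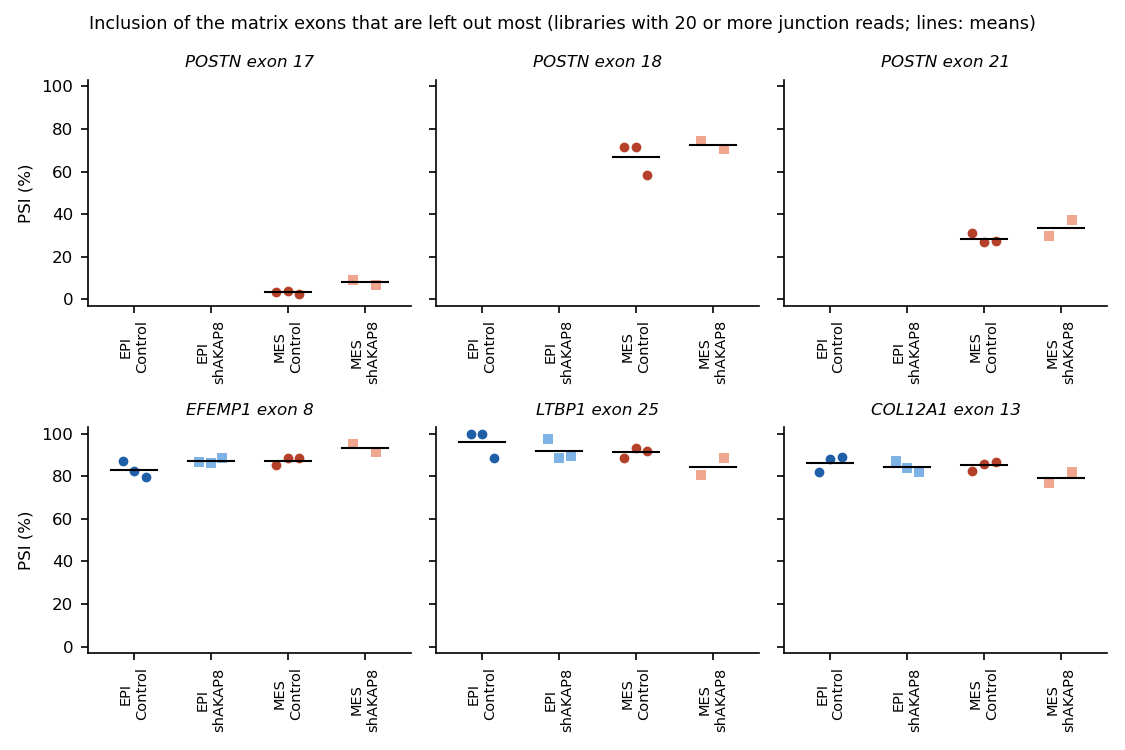
PSI in percent of 6 matrix exons that are left out in part, picked by hand as examples, 1 point per library with at least 20 junction reads and the group mean as a line, for EPI_Control (n = 3), EPI_shAKAP8 (n = 3), MES_Control (n = 3) and MES_shAKAP8 (n = 2). POSTN exons 17, 18 and 21 sit near 3, 67 and 28 in MES_Control and have no EPI point because of too few reads, and the other exons sit between 76 and 100 in every group.

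AKAP8 contacts on matrix transcripts were read from the seCLIP peak lists, 1 list per state merged from 2 replicates, so that peak numbers have no replicate spread and no test. Of the 24637 peaks in EPI, 285 (1.16%) lay on the strand and within the body of a matrix gene, and they fell in 10 of the 34 genes. Of the 30390 peaks in MES, 641 (2.11%) did so, in 13 genes. The share of all genes with a peak was not counted in either state. These numbers therefore do not show whether matrix genes hold more or fewer peaks than other genes. Joining peaks that overlap gave 138 and 384 regions. Nearly all were intronic: in EPI 212 were deep in introns, 70 in introns within 500 bases of an exon and 3 in noncoding exons, and in MES the numbers were 500, 131 and 3, with 6 in untranslated regions and 1 in a coding exon.

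Few genes held most of the peaks. LAMA5 had 114 in EPI and 145 in MES, AGRN 107 and 45, COL18A1 35 and 238, FBLN1 10 and 74 and HSPG2 11 and 19. Peaks in COL6A2 (51), COL6A1 (44), COL5A1 (10), FBN1 (6), COL1A1 (3), FBLN2 (3), FBLN5 (2) and LOXL2 (1) were found in MES alone, and 8 peaks in COL16A1, COL7A1, SPARC, LAMB1 and LAMA3 in EPI alone. Peaks can be found only on RNA that is present: COL6A1, COL6A2, FBN1, COL1A1 and FBLN5 were at low levels in EPI, and the part of the level in these numbers was not tested. COL18A1 had overlapping levels in the states (541 to 956 scaled reads in EPI_Control, 464 to 666 in MES_Control). These levels come from junction reads of spliced RNA, while 231 of its 238 peaks in MES lay deep in introns. The levels therefore do not measure the RNA that carries these peaks, and the part of that RNA was not tested. No peak was found in LOX, THBS1, POSTN or LTBP1 in either list. AGRN exon 4 had 2 peaks in EPI and 3 in MES within 500 bases, none overlapping it. The named or variable exons of COL12A1, COL17A1, EFEMP1, LAMA3, LAMA5, LOXL2, LTBP1, POSTN and THBS1 and the first of the exclusive AGRN exons had 0, and the collagen exons of 54 bases were not searched.

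The peaks with the highest ratio of IP to input in LAMA5 (EPI), COL18A1 (MES) and COL6A1 (MES) are shown because their letters share a feature, read on the strand of the gene in GRCh37 with runs of 3 or more G in capitals: LAMA5 (chr20:60934945-60935015, minus strand, log2 of IP over input 6.04), COL18A1 (chr21:46835349-46835450, plus strand, 5.81) and COL6A1 (chr21:47415951-47415990, plus strand, 5.32), all intronic.
LAMA5 peak: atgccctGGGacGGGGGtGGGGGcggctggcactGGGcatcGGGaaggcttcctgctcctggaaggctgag
COL18A1 peak: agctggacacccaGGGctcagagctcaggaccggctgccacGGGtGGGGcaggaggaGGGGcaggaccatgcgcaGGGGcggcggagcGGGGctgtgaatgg
COL6A1 peak: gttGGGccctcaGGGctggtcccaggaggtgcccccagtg
The motif GGG, searched on the strand of the gene only, was in 96.1% of the matrix peaks in EPI and 95.9% in MES. Windows of the same lengths over the same genes held it in 67.6% and 66.9%, and all peaks of the 2 lists in 97.3% and 95.9%. G made up a median of 47.3% and 43.5% of the bases of matrix peaks, against 47% and 43.8% of all peaks, so the matrix peaks look like the rest of their lists. A match of letters is a description and not a binding site.

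**Figure D5:**
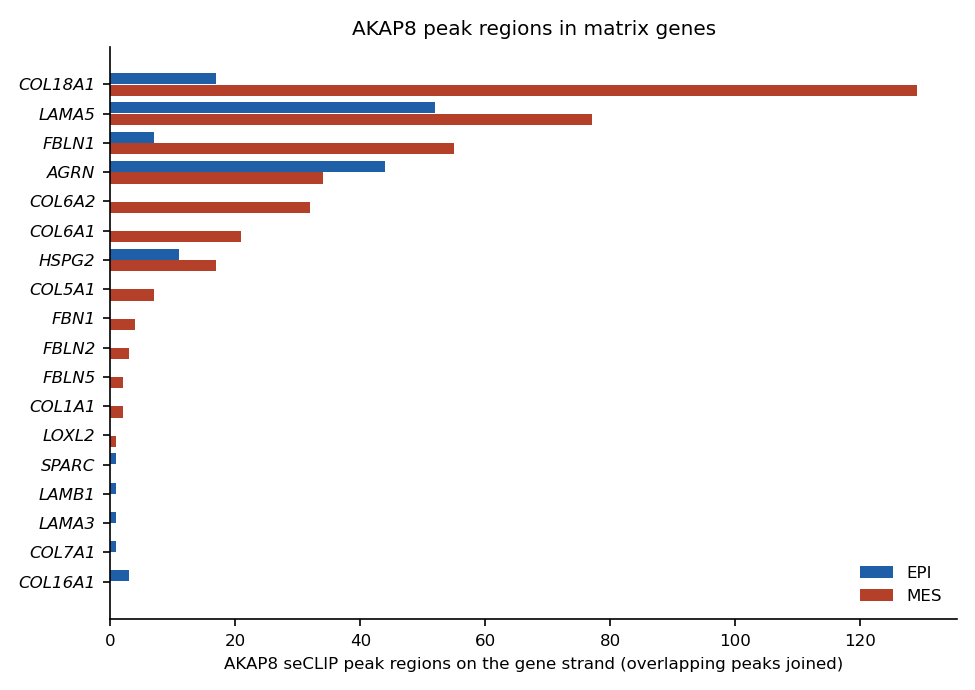
Number of AKAP8 seCLIP peak regions (overlapping peaks joined) on the strand of each matrix gene with at least 1, in EPI (blue) and MES (red), from 1 merged list per state and thus without error bars. COL18A1 has 17 regions in EPI and 129 in MES, and AGRN has 44 and 34.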

How the data were processed

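RNA-seq reads of 11 libraries were aligned by the authors to GRCh37 with STAR and Gencode v24, and rMATS counted inclusion and skipping junction reads per event, which the authors deposited as unnormalized counts, comma-joined per group without replicate numbers. The p-value, FDR and PSI difference columns hold the authors' comparisons and were not used, nor was their gene table (featureCounts 1.5.0, DESeq2), whose fold changes stand beside whole numbers in place of symbols. The seCLIP peak lists hold, as the authors deposited them, a log2 ratio to the input and a −log10 p-value per peak, with 2 replicates merged per state.

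Here the counts were summed per gene over the SE events of all 3 comparisons (9212 genes), divided by median-of-ratios size factors, and tested with limma 3.58.1 (trend) in R 4.3.3 on log2(value + 1), all 11 libraries in 1 fit, for 9016 genes with at least 10 in at least 2 libraries. Fold changes are on that scale and understate low genes. PSI came from the reads and effective lengths and was tested per event type with a quasi-binomial test, dispersion moderated by limma. p-values were adjusted with Benjamini-Hochberg over all genes, or all events of a type. Both tests were tested on simulated data. EPI_Control libraries serve both EMT and the EPI knockdown, MES_Control libraries both EMT and the MES knockdown, and the reads were identical in the 44899 SE events shared by the first pair. The third MES_Control library is in the EMT tables only. The GRCh37 version of Gencode v44 placed peaks and exons. Figures used matplotlib 3.10.9 in Python 3.11.15.

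The members, lists and tests were chosen with earlier results of these data known. Values per library are given for the 12 members with the largest called change in EMT, for members called in a knockdown and for the 3 with the smallest p there, the events by the same rule, and the 3 largest genes in each direction per list, of which 1 is not reported here. Alternatives were 2 other scalings, a pseudocount of 5, other filters and cutoffs, the comparison's groups alone, each library left out and, added after seeing the data, each comparison's own table and a set of high-confidence peaks.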

Additional observations from a re-analysis of the deposited data

How the results depend on the processing

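No paired analysis was possible because the tables list the libraries of a group in 1 field with no replicate number. Of the matrix gene counts, those in EMT (17) and in EMT of knockdown cells (16), the interaction (0) and the EPI knockdown splicing count (0) stayed within 1.5 times, as did the peak counts with a log2 of at least 3, with peaks wholly inside a gene and with high-confidence peaks. The EPI knockdown count of 1 became 2 with upper-quartile scaling, 3 with the SE event with the most reads, and 1 to 2 with a library left out. The MES knockdown count of 0 became 1 with upper-quartile scaling (LOX), with the MES groups alone (LOX) and with the own table (FBLN2), and was 0 with any library left out. The EMT splicing count of 1 became 0 with limma on the logit of PSI, 2 at a change of at least 5 points (COL7A1 added, 6.54 points), and 0 to 3 with a library left out, 0 without the second MES_Control and 3 without the third EPI_Control library (LAMB3 and COL17A1 added). The MES knockdown splicing count of 0 became 0 to 6 with a library left out, the 6 being mutually exclusive exons called without the first MES_shAKAP8 library, which leaves 1 library against 2 and assumes that the lone one varies like the others. The cause was not tested. Of 758 single values, 738 kept direction and side of the threshold, 15 were weaker, 5 stronger and 0 reversed.

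Scaling by the library total shifted the median log2 fold change of all genes by -0.11 in EMT, -0.21 in EMT of knockdown cells, -0.12 in the MES knockdown and -0.10 in the interaction. The split of all calls into higher and lower went from 486 and 645 to 393 and 737 in EMT, from 491 and 615 to 330 and 844 in EMT of knockdown cells, from 7 and 10 to 9 and 8 in the EPI knockdown and from 99 and 106 to 58 and 143 in the MES knockdown. Signs turned for members that were not called only. Levels rest on genes with a listed SE event, so 9 of the 34 members lack one, and low members such as LTBP3, FBLN5 and POSTN in EPI are limited by few reads.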
